A study of Mus musculus with 8 samples.

Results

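The classical pathway of complement was examined at the transcript level in pancreatic tumors grown in mice with and without host C3. The genes were chosen by name as C1qa, C1qb, C1qc, C1ra, C1s1, C2, C4b and Serping1, and all 8 were found once among the 29968 genes of the table. Bulk RNA came from KPC tumors of 4 C57BL/6J hosts (WT) and 4 complement C3–null hosts on the C57BL/6J background (C3-/-), all male and 12 weeks old. Each pancreas tail had received 250000 KPC FC1245 cells in 50 μL of PBS. FC1245 is 1 cell line, isolated from a tumor of a genetically engineered mouse in which Pdx-1-Cre is active in the pancreatic lineage. The implanted cells were not C3-null, so C3 was absent from the host and not from the cancer cells. Bulk RNA does not separate cancer cells from host cells, and fewer cells of a type cannot be told apart from less RNA per cell.

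The classical pathway starts when C1q binds antibody on a target, or certain other ligands, and switches on the proteases C1r and C1s that travel with it. C1s cleaves C4 and C2, whose fragments join into the convertase that cleaves C3, and the C1 inhibitor encoded by Serping1 shuts C1r and C1s down. The liver secretes most of these proteins into plasma, whereas C1q is made mainly by macrophages and dendritic cells, and fibroblasts are a known local source of C1r, C1s and C1 inhibitor. All these steps lie upstream of C3, so the comparison asks whether transcripts of the initiating arm differed when the host lacked the protein this arm acts on.

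The genes for the A, B and C chains of C1q form a cluster on chromosome 4 of mm39. On the minus strand, C1qb lies at chr4:136607440-136613498, C1qc at chr4:136617115-136620376 and C1qa at chr4:136623228-136626114, a span of 18675 bases, and each gene has 3 exons in its canonical transcript. C1ra (chr6:124489364-124500402, plus strand) and C1s1 (chr6:124507304-124519318, minus strand) point toward each other with 6901 bases between them. C4b (chr17:34947354-34962856, 41 exons) and C2 (chr17:35081580-35117241, 18 exons) lie on the minus strand of the major histocompatibility region, and 85 bases separate C2 from Cfb, which encodes factor B of the alternative pathway. Serping1 lies at chr2:84595731-84605788 on the minus strand and has 8 exons. C2 overlaps Zbtb12 and 1 further gene on the plus strand, and the strand setting of the counting is not given in the sources used here, so the count of C2 may hold reads of these genes.

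Because the C1q genes moved together from tumor to tumor, as described further on, the 250 bases before the canonical start of each are shown, 5′ to 3′ on the gene's own strand, read from GRCm39 with GENCODE vM39 starts. They lie at chr4:136626162-136626411 for C1qa, chr4:136613512-136613761 for C1qb and chr4:136620377-136620626 for C1qc. Capitals mark the matches to the motifs searched.
C1qa: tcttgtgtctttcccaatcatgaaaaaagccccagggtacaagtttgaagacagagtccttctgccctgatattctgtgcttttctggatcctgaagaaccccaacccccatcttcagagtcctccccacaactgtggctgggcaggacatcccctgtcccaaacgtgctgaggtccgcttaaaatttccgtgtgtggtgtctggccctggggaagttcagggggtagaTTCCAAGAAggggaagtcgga
C1qb: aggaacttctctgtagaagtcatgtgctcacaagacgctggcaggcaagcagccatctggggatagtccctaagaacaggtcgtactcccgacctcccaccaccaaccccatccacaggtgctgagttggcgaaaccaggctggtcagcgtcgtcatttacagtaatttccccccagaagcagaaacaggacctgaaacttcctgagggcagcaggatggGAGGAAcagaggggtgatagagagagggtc
C1qc: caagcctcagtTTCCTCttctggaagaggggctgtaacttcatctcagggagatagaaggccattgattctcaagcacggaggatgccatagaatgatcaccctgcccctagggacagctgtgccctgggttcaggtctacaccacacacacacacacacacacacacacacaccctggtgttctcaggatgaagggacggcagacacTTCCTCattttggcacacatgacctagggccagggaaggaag

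The motifs, searched on both strands, were the PU.1 core GAGGAA, the GAS element TTCNNNGAA, the ISRE core (GAAA and again GAAA, 2 bases apart) and the TATA box TATAAA. PU.1 is a transcription factor of the myeloid lineage, and the GAS and ISRE elements belong to interferon signaling. The C1qb window held the PU.1 core from 30 to 25 bases before the start, and the C1qc window held it on the minus strand from 239 to 234 and from 42 to 37 bases before the start. C1qa lacked it and held a GAS element from 21 to 13 bases before the start. Of the other 5 genes, only Serping1 held any of these motifs, a PU.1 core from 139 to 134 bases before its start. The ISRE core and the TATA box were found in 0 of the 8 windows. Over 21770 promoter windows of the same length, 22.9% held the PU.1 core, 7.7% the GAS element, 3.32% the ISRE core and 11.9% the TATA box. With 8 windows, the 3 that held a PU.1 core say little against these shares.

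The tumors had between 13266029 and 23354212 counts, and 16610 genes passed the filter on low counts, the 8 classical pathway genes among them. C3 itself, the check of the labels, had 111 ± 15.7 CPM (counts scaled to library size by TMM) in C3-/- tumors and 296 ± 100 in WT tumors (SD, n = 4 each), without overlap. edgeR did not call even this difference after adjustment over all genes (adjusted p = 0.933), while DESeq2 did (adjusted p = 1.2e-05). Other tissues entered unequally. Acinar markers summed to 1869 CPM in C3-/- replicate 1, 4.16 to 12 CPM in the other C3-/- tumors and 140 to 460 CPM in WT tumors. Skeletal muscle markers were at 2.24 to 3.32 CPM in WT replicates 2 and 3 and C3-/- replicate 2 and at 1615 to 4121 CPM elsewhere, and hepatocyte markers were at 97.9 CPM in WT replicate 4 and 13.5 to 29.5 CPM elsewhere. In WT replicate 3 and C3-/- replicate 1, short genes read higher against long genes than in the other tumors.

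On a per-length scale (FPKM, the values the authors deposited), C1qa and C1qb were the most abundant of the 8 transcripts. C1qa averaged 153 ± 53 FPKM over the 8 tumors (SD), rank 260 of 29968 genes, and C1qb averaged 142 ± 53.6 FPKM, rank 279. C1qc averaged 57.9 ± 16.7 FPKM and Serping1 53.9 ± 17.2, and these neighbors in the order changed places in 4 of 8 tumors. C4b (16.5 ± 7.43 FPKM) and C1s1 (14.4 ± 3.74) also changed places in 4 of 8 tumors, while C1qb stood above C1qc, Serping1 above C4b, and C1s1 above C1ra in each of the 8. C1ra averaged 7.13 ± 1.83 FPKM. C2, the protease subunit of the convertase, was the scarcest at 1.22 ± 0.624 FPKM, below C1ra in each tumor, and rested on 23 to 127 counts per tumor. The order of C1qb depends on the length assigned to it. The deposited length was 1088 bases and that of the canonical transcript 2532, which would place C1qb at 61.1 FPKM, against 147 for C1qa, 60.4 for C1qc and 68.4 for Serping1.

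**Figure D1:**
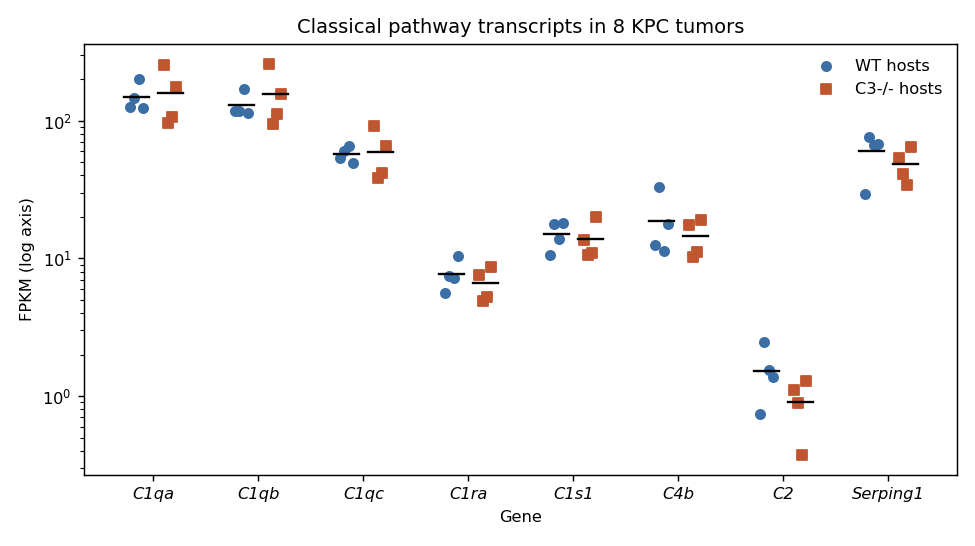
FPKM of each gene (log axis) in the 4 tumors of WT hosts (circles) and the 4 of C3-/- hosts (squares), with black bars at the genotype means. C1qa and C1qb sit between 93.7 and 259 FPKM and C2 between 0.372 and 2.45 FPKM, and the genotypes overlap for each gene.

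No classical pathway gene was called different between the genotypes, in a design in which edgeR did not call C3 either. In edgeR's quasi-likelihood test with Benjamini-Hochberg adjustment over 16610 genes, 0 of the 8 had an adjusted p below 0.05, as did 0% of all genes tested, and 0 of the 8 had an unadjusted p below 0.05, against 5.11% of all genes. DESeq2 called 0 of the 8 and 0.0848% of the 18864 genes to which it gave an adjusted p. The CPM ranges of the genotypes overlapped for 8 of 8 genes, where 3.73% of all genes tested had ranges that did not overlap. The 3 C1q genes had higher fitted levels in C3-/- tumors and the other 5 lower ones. The median log2 fold change of the 8 was -0.17, against -5.8e-05 over all genes tested, and without WT replicate 2 it was 0.018. The labels name the tumors as separate replicates, and the study's methods describe separate animals.

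**Figure D2:**
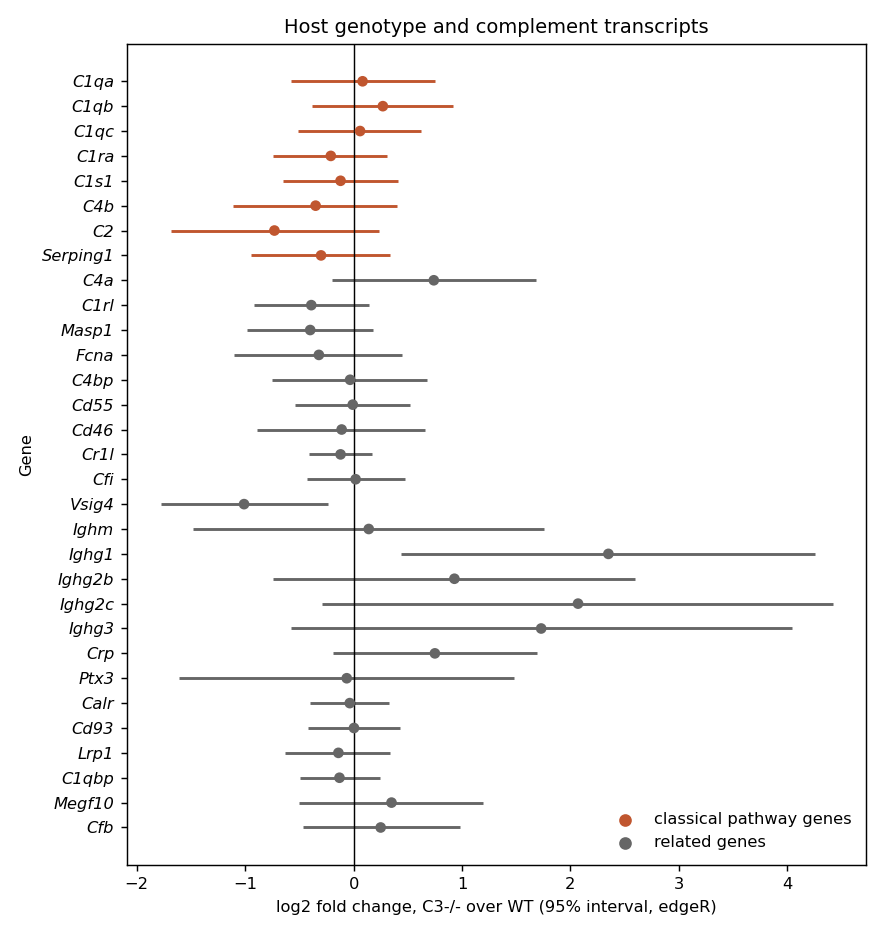
log2 fold change of C3-/- over WT tumors (edgeR) with 95% intervals for the 8 classical pathway genes and for the 23 related genes with enough counts to be tested. The intervals of the 8 genes span 0, from C2 at -0.73 to C1qb at 0.27, and those of Vsig4 (lower) and Ighg1 (higher) do not.

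C1q is the recognition subunit, a bundle of A, B and C chains from C1qa, C1qb and C1qc. C1qa had 131, 153, 212 and 131 CPM in WT replicates 1 to 4 and 266, 102, 111 and 184 CPM in C3-/- replicates 1 to 4. The highest and the 2 lowest tumors were all C3-/-, so the WT range lay inside that of the C3-/- tumors. The log2 fold change was 0.083 (SE 0.30, 95% interval -0.58 to 0.75, edgeR adjusted p = 0.999). C1qb had 128, 128, 186 and 125 CPM in WT tumors and 286, 103, 121 and 173 CPM in C3-/- tumors. Here too C3-/- replicate 1 was the highest of the 8 and WT replicate 3 the highest of its genotype. The log2 fold change of C1qb was 0.27 (SE 0.29, 95% interval -0.38 to 0.92, edgeR adjusted p = 0.999). C1qc had 103, 117, 127 and 95.8 CPM in WT tumors and 178, 74.6, 81.5 and 127 CPM in C3-/- tumors, with the same tumors at the extremes. Its log2 fold change was 0.06 (SE 0.25, 95% interval -0.51 to 0.62, edgeR adjusted p = 0.999).

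The sign of the C1q fold changes was not stable. Without C3-/- replicate 1 the log2 fold changes were -0.24 for C1qa, -0.1 for C1qb and -0.23 for C1qc, none of them called, and C1qa and C1qc also turned negative in limma-voom with all 8 tumors (-0.0021 and -0.019). C3-/- replicate 1 was also the one with the most acinar transcript, the highest level of the 3 C1q genes together (729 CPM against 280 to 525 in the other 7) and, with WT replicate 3, the excess of short genes. The part of acinar RNA in the C1q levels was not tested, and the values with an offset for gene length and GC content are given further on. Macrophage markers, 12 of 12 above the filter, summed to 733 CPM in C3-/- replicate 1, to 472 to 744 CPM in the other C3-/- tumors and to 544 to 643 CPM in WT tumors, and 7 of the 12 had higher and 5 lower fitted levels in C3-/- tumors, close to the 8304 higher and 8306 lower among all genes tested. After adjustment 0 of the 12 were called by edgeR or DESeq2. Only Ms4a7 among them had an unadjusted p below 0.05 (log2 fold change 0.90, adjusted p = 0.971 in edgeR), where 5.11% of all genes did. Together the C1q genes took between 0.0287% and 0.0699% of a tumor's counts.

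C1r and C1s are the serine proteases of the C1 complex, encoded in mice mainly by C1ra and C1s1. C1ra had 16.8, 22.3, 21.8 and 31.3 CPM in WT replicates 1 to 4 and 22.9, 14.8, 15.8 and 26 CPM in C3-/- replicates 1 to 4. WT replicate 4 was the highest and C3-/- replicate 2 the lowest, and 2 of the 4 C3-/- tumors lay above the WT median. The log2 fold change was -0.21 (SE 0.24, 95% interval -0.74 to 0.31, edgeR adjusted p = 0.999), and it ran from -0.37 without C3-/- replicate 4 to -0.03 without WT replicate 4. The latter tumor carried the most hepatocyte transcript, and liver is known to express both proteases strongly. Of the 10 hepatocyte markers 6 passed the filter, and 0 of these were called by edgeR or DESeq2 after adjustment. The fitted levels of 5 of the 6 were lower in C3-/- tumors, against 8306 of all 16610 genes. Of these, 3 (Alb, Fgb and Ahsg) had an unadjusted p below 0.05 in edgeR, against 344 lower genes of all 16610, and Serpina1a and Serpina1c were at 0 in several tumors. The parts of hepatocyte and fibroblast RNA in the C1ra level were not tested. C1s1 had 32.9, 56, 43.6 and 56.9 CPM in WT tumors and 43.2, 33.5, 34.3 and 63.3 CPM in C3-/- tumors, so that the highest value belonged to a C3-/- tumor and the lowest to a WT tumor. Its log2 fold change was -0.12 (SE 0.24, 95% interval -0.65 to 0.41, edgeR adjusted p = 0.999). It ran from -0.36 without C3-/- replicate 4 to -0.013 without C3-/- replicate 2.

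C4b encodes the C4 protein that C1s cleaves and that attaches to the target surface. Its levels were 71.3, 189, 65.2 and 101 CPM in WT replicates 1 to 4 and 101, 59.5, 63.6 and 109 CPM in C3-/- replicates 1 to 4. WT replicate 2 stood far above the other 7 tumors, which lay between 59.5 and 109 CPM and were mixed by genotype. In edgeR the log2 fold change was -0.35 (SE 0.34, 95% interval -1.11 to 0.40, edgeR adjusted p = 0.999), and without WT replicate 2 it was 0.069.

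C2 supplies the protease of the classical convertase. It had 2.86, 9.57, 6.03 and 5.4 CPM in WT replicates 1 to 4 and 4.3, 3.47, 1.45 and 5.09 CPM in C3-/- replicates 1 to 4. The 4 C3-/- tumors lay below the WT median, and WT replicate 1 lay among them. The log2 fold change, -0.73 (SE 0.43, 95% interval -1.68 to 0.23), was the most negative of the 8 and did not pass the test (edgeR unadjusted p = 0.12, adjusted p = 0.985). DESeq2 gave C2 an unadjusted p of 0.0727 (adjusted p = 0.963), and the exact two-sided permutation test on log2(CPM + 0.1) gave p = 0.229, where the smallest p for 4 tumors against 4 is 0.0286. Between its highest and lowest tumor C2 varied 6.59-fold, more than any other of the 8, for which the ratio ran from 1.9 (C1s1) to 3.19 (C4b). Cfb, the neighbor and relative of C2, had 2.03 to 3.92 CPM in WT tumors and 2.2 to 4.54 in C3-/- tumors, with a log2 fold change of 0.25 (SE 0.33, edgeR adjusted p = 0.999), and it shared no 50-base stretch with the C2 transcript.

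Serping1 encodes C1 inhibitor, which inactivates C1r and C1s and also the contact-system protease kallikrein. It had 68.2, 177, 156 and 159 CPM in WT replicates 1 to 4 and 125, 97.1, 80.4 and 151 CPM in C3-/- replicates 1 to 4. WT replicates 2, 3 and 4 lay above the 4 C3-/- tumors, while WT replicate 1 lay below them. Its log2 fold change was -0.30 (SE 0.29, 95% interval -0.95 to 0.34, edgeR adjusted p = 0.999). The size of the difference for C2 and Serping1 depended on which tumors entered. Without WT replicate 1 the log2 fold changes were -0.96 for C2 (edgeR unadjusted p = 0.0438) and -0.53 for Serping1 (edgeR unadjusted p = 0.0305). Without WT replicate 2 they were -0.41 and -0.17, and without C3-/- replicate 3 they were -0.48 and -0.18. Neither gene was called after adjustment in any of these fits. Of the mesothelial markers, 0 of 5 were called by edgeR or DESeq2 after adjustment. The fitted levels of 5 of 5 were lower in C3-/- tumors, against 8306 of all 16610 genes tested, and 3 of them, Upk3b, Lrrn4 and Upk1b, had an unadjusted p below 0.05, against 344 lower genes of all 16610. Msln, which made up most of the summed level, had a log2 fold change of -0.078, while Upk3b, Lrrn4, Upk1b and Wt1 had -1.43, -1.30, -0.91 and -0.59. The sum, which thus mainly follows Msln, ran from 486 to 572 CPM in WT tumors and from 366 to 549 CPM in C3-/- tumors. The part of mesothelial cells in the levels of C2 and Serping1 was not tested.

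Across the tumors the C1q genes varied together. The other 5 genes, described here as a second block, had lower r over all 8 tumors (0.60 to 0.90, against 0.94 to 0.98). The 2 ranges overlapped without the 2 tumors farthest from the median (0.39 to 0.97 and 0.86 to 0.98) and after the offset given further on (0.64 to 0.90 and 0.85 to 0.94). This difference in closeness was not tested. Pearson's r of log2 CPM was 0.96 for C1qa and C1qb, 0.98 for C1qa and C1qc and 0.94 for C1qb and C1qc (8 tumors). On this scale the 3 genes placed the 8 tumors in 1 and the same order, so Spearman's rho was 1 for each pair. The exact permutation p was 2.48e-05 for each r and 4.96e-05 for each rho, the smallest that 8 tumors allow. Over the family of 68 relations the Benjamini-Hochberg values were 0.000562 and 0.00112. Leaving out the 2 tumors farthest from the median gave r from 0.86 to 0.98, and the correlation of the deviations from the genotype means ran from 0.96 to 0.98.

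Transcripts of the C1q chains also stayed close to fixed proportions. The count of C1qb was 0.837 to 1.09 times that of C1qa, a coefficient of variation of 8.96% over the tumors, and the count of C1qc was 0.602 to 0.785 times that of C1qa (8.17%). For the protease pair, C1s1 over C1ra ran from 1.82 to 2.51 (12%). Other proportions were looser, both across the blocks, where C1qa over C1s1 ran from 2.29 to 6.16 (35.3%), and within the second, where Serping1 over C1s1 ran from 2.07 to 3.57 (17.5%) and C4b over C2 from 10.8 to 43.9 (42.8%). The value of 43.9 came from C3-/- replicate 3, where C2 had only 23 counts, while the C1q genes had at least 1293 counts in each tumor. The ratio of C1qa to Csf1r, a macrophage receptor gene, ran from 1.18 to 2.47 (28%), highest in WT replicate 3.

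Within the other block of 5 genes the 10 pairs had r from 0.60 to 0.90, and 1 of the 10 passed the adjustment. That pair was C2 and Serping1 (r = 0.87, exact permutation p = 0.00228, Benjamini-Hochberg 0.0388; rho = 0.95, exact permutation p = 0.00114, Benjamini-Hochberg 0.0155), with r = 0.97 without the 2 farthest tumors. The proteases C1ra and C1s1 had r = 0.90 (exact permutation p = 0.00657, Benjamini-Hochberg 0.0638; rho = 0.83, exact permutation p = 0.0154, Benjamini-Hochberg 0.106), also 0.90 without the 2 farthest tumors. C1s1 and Serping1, a protease and its inhibitor, had r = 0.88 (exact permutation p = 0.00861, Benjamini-Hochberg 0.0732; rho = 0.81, exact permutation p = 0.0218, Benjamini-Hochberg 0.106) and 0.91 without those tumors. Over the 15 pairs between the blocks r ran from 0.18 to 0.52, and 0 of 15 passed the adjustment, although leaving out the 2 farthest tumors took the range to between 0.28 and 0.82. The 10 pairs within the block then ran from 0.39 (C2 and C4b) to 0.97, so the 2 ranges overlapped. The difference between the blocks was not tested.

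**Figure D3:**
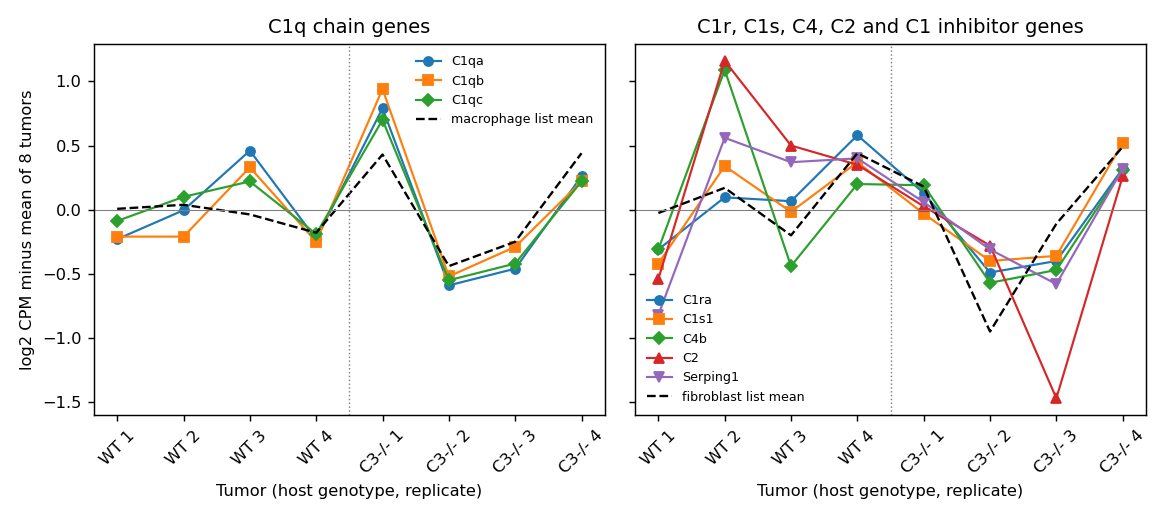
log2 CPM of each gene minus its mean over the 8 tumors, by tumor, for the C1q genes (left, with the mean of the macrophage markers dashed) and for C1ra, C1s1, C4b, C2 and Serping1 (right, with the mean of the fibroblast markers dashed). The 3 C1q lines nearly coincide, peak in C3-/- replicate 1 (0.70 to 0.94) and are lowest in C3-/- replicate 2, while C4b and C2 peak in WT replicate 2 (1.09 and 1.16) and C2 is at -1.47 in C3-/- replicate 3.

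Levels of the 8 genes were also set against marker lists of cell types, with no test of the difference between lists. The mean log2 CPM of the macrophage markers had r = 0.83 with C1qa, 0.81 with C1qb and 0.89 with C1qc, of which the last passed the adjustment (exact permutation p = 0.00288, Benjamini-Hochberg 0.0391). Spearman's rho was 0.81 for each of the 3 (exact permutation p = 0.0218, Benjamini-Hochberg 0.106), and without the 2 farthest tumors r was 0.72, 0.62 and 0.90. With the 5 other genes the macrophage list had r from 0.34 to 0.52 and rho from 0.26 (Serping1) to 0.76 (C4b, exact permutation p = 0.0368, Benjamini-Hochberg 0.156), the last of them close to that of the C1q genes. The fibroblast markers had r = 0.81 with C1ra (exact permutation p = 0.0103, Benjamini-Hochberg 0.0756), where rho was 0.90 (exact permutation p = 0.00456, Benjamini-Hochberg 0.0443) and r was 0.78 without the 2 farthest tumors. With C1s1 the fibroblast list had r = 0.75 (exact permutation p = 0.0177, Benjamini-Hochberg 0.1; rho = 0.71, exact permutation p = 0.0576, Benjamini-Hochberg 0.186), and 0.71 without those tumors. C4b had r = 0.64 and rho = 0.83 with the fibroblast list (exact permutation p = 0.0892 and 0.0154, Benjamini-Hochberg 0.253 and 0.106). With the C1q genes the fibroblast list had r from 0.40 to 0.55. The mesothelial markers had values close to those of the fibroblast markers for these genes, r = 0.72 with C1ra and 0.69 with C1s1, and for C4b, r = 0.65.

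C2 and Serping1 followed the mesothelial markers more closely than the fibroblast markers in the values of r, 0.85 against 0.33 for C2 and 0.79 against 0.46 for Serping1. This difference was not tested. For C2 and the mesothelial list the exact permutation p was 0.00419 (Benjamini-Hochberg 0.0475), rho was 0.95 (exact permutation p = 0.00114, Benjamini-Hochberg 0.0155) and r was 0.85 again without the 2 farthest tumors. For Serping1 the exact permutation p was 0.0246 (Benjamini-Hochberg 0.119), rho was 0.93 (exact permutation p = 0.00223, Benjamini-Hochberg 0.0253) and r was 0.68 without those tumors. The mesothelial list contains Wt1, the gene with the pattern most like that of Serping1. None of the 8 genes passed the adjustment against the epithelial list (r from -0.23 to 0.40) or against the interferon-response list (r from -0.24 for C2 to 0.64 for C1qb). In the latter list 0 of 12 genes were called by edgeR or DESeq2 after adjustment. The fitted levels of 11 of the 12 were higher in C3-/- tumors, against 8304 of all 16610 genes, and 3 of them had an unadjusted p below 0.05 in edgeR, against 504 higher genes of all 16610. The points are 8 bulk tumors that share unequal depth and tissue makeup, so these values describe covariation and not the cells in which a gene was expressed.

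**Figure D4:**
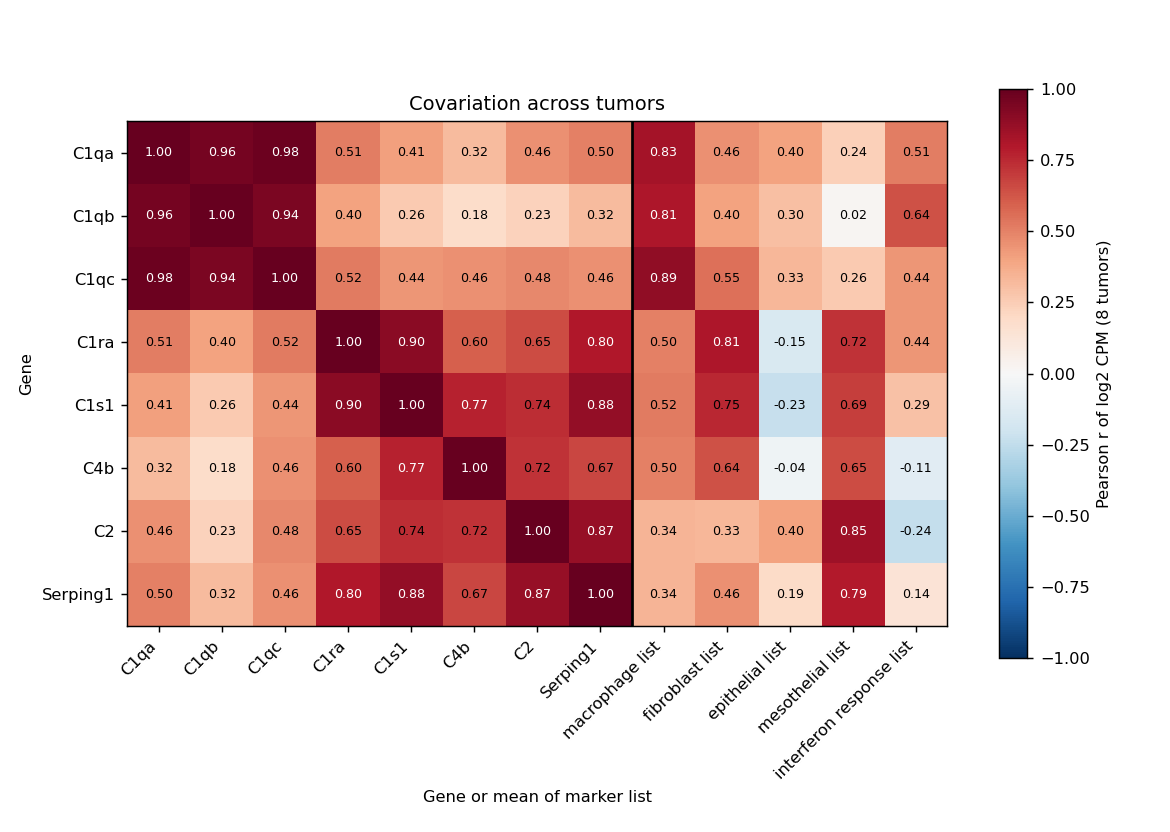
Pearson's r of log2 CPM over 8 tumors between the 8 classical pathway genes and, right of the black line, with the mean log2 CPM of 5 marker lists. The dark block at the upper left holds the C1q genes (0.94 to 0.98), the block below it the other 5 genes (0.60 to 0.90), and the pairs between the blocks lie from 0.18 to 0.52.

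The C1q transcripts are short, and their levels were highest in tumors where short genes read high against long genes. The deposited lengths of C1qa, C1qb and C1qc were 1040, 1088 and 1931 bases, all within the short genes compared here (up to 1968 bases), while the other 5 ran from 2325 (Serping1) to 5695 bases (C4b). By its canonical length of 2532 bases C1qb would not be among the short genes, and the offset used the deposited lengths. These short genes stood above long genes (over 7069.6 bases) by 0.571 in WT replicate 3 and by 0.572 in C3-/- replicate 1, as differences in median log2 deviation, against -0.314 to -0.0796 in the other 6 tumors. Genes of high GC content stood above those of low GC content by 0.449 in C3-/- replicate 1, against -0.218 to 0.111 in the other 7, and C1qa (59% GC) and C1qc (56%) were among the genes of high GC content (from 55.7%). The offset used here removes both dependences together, so their shares were not separated. With an offset per tumor for GC content and length, the log2 range of C1qa over the tumors narrowed from 1.38 to 0.82, that of C1qb from 1.47 to 0.94 and that of C1qc from 1.25 to 0.70. C3-/- replicate 4 then had the highest level of C1qa and stood level with C3-/- replicate 1 for C1qc, while C1qb was still highest in C3-/- replicate 1. The ranges of the other 5 genes moved less, from 1.66 to 1.59 for C4b at most, and that of C2 was 2.63 on either scale. After the offset the C1q pairs still had r from 0.85 to 0.94, the 10 pairs of the other block 0.64 to 0.90 and the pairs between blocks 0.12 to 0.64. The 3 C1q genes then placed the tumors in 3 different orders. The macrophage list had r = 0.86, 0.84 and 0.95 with C1qa, C1qb and C1qc after the offset. The fibroblast list had r = 0.62, 0.50 and 0.71 with them, 0.78 with C1ra, 0.72 with C1s1, 0.64 with C4b, 0.31 with C2 and 0.40 with Serping1, so it did not separate the C1q genes from the other 5. The epithelial list turned from r = 0.40, 0.30 and 0.33 with C1qa, C1qb and C1qc to -0.21, -0.34 and -0.26. No member was called, and the log2 fold changes of C1qa, C1qb and C1qc were 0.061, 0.25 and 0.014.

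**Figure D5:**
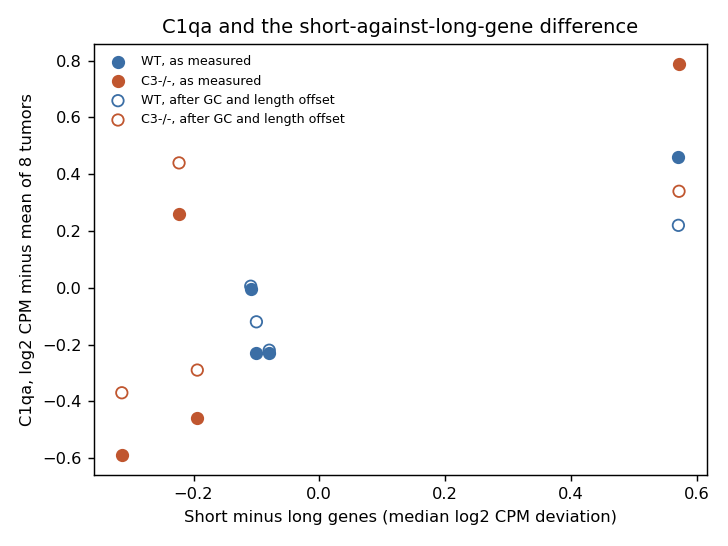
Level of C1qa in each tumor (log2 CPM minus the mean of the 8) against the difference between short and long genes in that tumor, as measured (filled) and after the GC and length offset (open). WT replicate 3 and C3-/- replicate 1, at 0.571 and 0.572 on the horizontal axis, drop from 0.46 and 0.79 to 0.22 and 0.34 after the offset, and C3-/- replicate 4 moves from 0.26 to 0.44.

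Mice carry close copies of several of these genes, and read pairs that match both copies cannot be placed with certainty. Of all 150-base stretches of the canonical C1ra transcript, 26.3% also occurred in C1rb, against 2.89% for C1s1 in C1s2 and 8.17% for C4b in C4a, and 0% for each pair of C1q genes. The copies took few counts. C1rb, known mainly from the male reproductive tract, had 3, 3, 1 and 5 counts in the WT tumors and 1, 0, 0 and 1 in the C3-/- tumors, replicates 1 to 4 in order, at most 1.1% of the C1ra and C1rb counts of a tumor. C1s2 had 2 to 9 counts, at most 1.45% of the C1s1 and C1s2 counts. C4a, the sex-limited copy of C4, had 21, 21, 13 and 11 counts in WT tumors and 31, 36, 40 and 22 in C3-/- tumors, 0.46% to 3.81% of the C4b and C4a counts. Its log2 fold change was 0.74 (SE 0.42, 95% interval -0.20 to 1.68, edgeR adjusted p = 0.985). Summing each gene with its copy gave log2 fold changes of -0.22 for C1ra, -0.12 for C1s1 and -0.34 for C4b.

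Around the classical pathway, 32 related genes were listed (copies, the lectin branch, regulators, C1q ligands and binding proteins, and Cfb), of which 29 were in the table and 23 passed the filter on low counts. edgeR and DESeq2 each called 0 of the 23 at an adjusted p below 0.05. At an unadjusted p below 0.05 edgeR gave 1 higher and 1 lower of the 23, against 504 higher and 344 lower of all 16610. DESeq2 gave 3 of the 29 (Vsig4, Ighg1 and Apcs), of which Apcs did not pass edgeR's filter. Its share over all genes at that threshold was not counted, so the 3 cannot be set against a background. In the lectin branch, which feeds into C4 and C2 through other recognition proteins, Fcna was the most abundant, with 22.6 to 33.9 CPM in WT tumors and 11.4 to 35.5 in C3-/- tumors (log2 fold change -0.32, SE 0.35, edgeR adjusted p = 0.999). Among regulators the most abundant was Cfi, the protease that cleaves C4b and C3b, with 251 to 407 CPM in WT tumors and 255 to 401 in C3-/- tumors (log2 fold change 0.019, SE 0.20, edgeR adjusted p = 0.999). Among ligands and binding proteins it was Calr, a chaperone that C1q can bind on dying cells (log2 fold change -0.035, SE 0.16, edgeR adjusted p = 0.999). C1rl, most abundant of the copies, had a log2 fold change of -0.39 (SE 0.24, edgeR adjusted p = 0.99).

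Vsig4, which encodes a receptor for C3 fragments on resident macrophages, had 3.61, 7.99, 6.55 and 4.94 CPM in WT replicates 1 to 4 and 2.76, 4.03, 1.51 and 3.12 CPM in C3-/- replicates 1 to 4. The genotypes overlapped through WT replicate 1 and C3-/- replicate 2. The log2 fold change was -1.01 (SE 0.35), with an edgeR unadjusted p of 0.0155 and adjusted p of 0.96, and an adjusted p of 0.42 in DESeq2. Ighg1, an IgG heavy chain gene whose product in immune complexes can be bound by C1q, had 7, 15, 11 and 0 counts in WT tumors and 128, 18, 50 and 27 in C3-/- tumors. Its values did not overlap in counts, with 15 as the highest WT and 18 as the lowest C3-/- count, but they overlapped in CPM (1.13 against 1.01). For Ighg1 the log2 fold change was 2.35 (SE 0.86, edgeR unadjusted p = 0.0206, adjusted p = 0.964; DESeq2 adjusted p = 0.344).

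By the correlation of log2 CPM over the 8 tumors, among 15283 genes with a mean of at least 1 CPM and with the 8 genes themselves left out, the 3 patterns most like C1qa were those of Cby1 (r = 0.985), Tyrobp (0.970) and Chtf18 (0.969). For C1qb they were Tyrobp, Saal1 and Cst3 (0.970 to 0.972), and for C1qc Chtf18, Thy1 and Dohh (0.969 to 0.979). Tyrobp encodes a signaling adaptor of myeloid cells, and Thy1 belongs to the fibroblast list used here. For C1ra they were Rgcc, Ly6c1 and Fstl1 (0.942 to 0.960), and for C1s1 Ddah1, Adamts2 and Kcne4 (0.954 to 0.981). Among these, Adamts2 encodes an enzyme of collagen processing and Ly6c1 a surface protein of monocytes and endothelial cells. Adgrd1, Wtip and Slc24a3 were most like C2 (0.946 to 0.979), Prrg3, Npr1 and Lpl most like C4b (0.948 to 0.969), and Wt1, Hcar2 and Tsku most like Serping1 (0.965 to 0.985). Wt1 encodes a transcription factor of mesothelium, and Lpl encodes lipoprotein lipase, known from adipose tissue and muscle. With 8 tumors such values are usual, since the third-highest r of a gene had a median of 0.962 and a 5th percentile of 0.918 over 15291 genes.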

How the data were processed

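RNA of 8 KPC tumors was analysed, 4 from WT and 4 from C3-/- hosts, grouped by the labels. Per the labels, libraries were poly-A selected and the genome was mm39. The study's methods name STAR and HTSeq, whereas the submitters' processing notes name HISAT2 2.0.5 and DESeq2 1.20.0, so the aligner is uncertain. The authors deposited raw counts per gene and FPKM values per gene, the latter scaled by DESeq2's size factors and a gene length. The deposited table also holds the authors' normalized counts and their own fold changes and p-values, which were not used.

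Genotypes were compared on the counts with edgeR 4.0.16 in R 4.3.3 (filterByExpr with a minimum count of 10, TMM, glmQLFit and glmQLFTest, Benjamini-Hochberg over all genes tested). CPM used TMM-scaled library sizes, and log2 CPM a prior count of 2. Exact tests used log2(CPM + 0.1), and the alternatives on FPKM were limma on log2(FPKM + 0.1) and log2(FPKM + 1), which understate changes of low genes. Other alternatives were DESeq2 1.42.0, its size factors in edgeR, limma-voom (limma 3.58.1), no filter, at least 10 counts in every tumor, the replicate number as a block, each tumor left out, and genes summed with their copies. An offset for GC content and length (splines with 4 degrees of freedom, GC known for 99.7% of genes) and FPKM at canonical lengths were added after seeing the data. The edgeR, DESeq2 and limma-voom fits were also run on simulated counts with known changes, and the outcome is not given here. Correlations used Python 3.11.15 with scipy 1.17.1.

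The 8 genes and all lists were chosen with earlier results of these data known. Named besides the 8 are C3, their copies, Cfb, related genes with an unadjusted p below 0.05, the most abundant gene of each list, the 3 genes most alike to each, and markers where a result touches them. Counts are read pairs, not molecules. Between 13266029 and 23354212 counts per tumor were available, from 23 for C2 in C3-/- replicate 3 upward. Promoters came from GRCm39 and GENCODE vM39. Protein sequences were not used here, and some alleles and genes are not reported here.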

Additional observations from a re-analysis of the deposited data

Results flagged for a closer look

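Among 64 groups of 4 tumors (C3 and each tested gene of the classical pathway and the related lists, within a genotype), 5 had a tumor whose gap to the nearest other, over the range, passed Dixon's 95% critical value. Chance gives about 1 such group in 20. C1qb in WT replicate 3 had 186 CPM against 125 to 128 CPM in the other WT tumors. Ighg2c, an IgG heavy chain gene, stood apart in both genotypes, at 7.84 CPM in WT replicate 3 against 0.151 to 1.15 CPM, and at 28.3 CPM in C3-/- replicate 1 against 2.08 to 6.29 CPM. These are the tumors with the excess of short genes, whose part in the values of Ighg2c was not tested. Cr1l, a membrane regulator of C3 and C4 fragments, was low in C3-/- replicate 1, at 46.7 CPM against 57.9 to 58.7 CPM. The part of the short-gene excess of that tumor in this value was not tested either. Cd93, a receptor gene of endothelial and myeloid cells first described as a C1q receptor, was high in C3-/- replicate 4, at 98.9 CPM against 54.8 to 61.9 CPM.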

How the results depend on the processing

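The count of classical pathway genes called was 0 under each of 17 alternative settings. At most 2 of the 8 had an unadjusted p below 0.05, C2 and Serping1 in edgeR without WT replicate 1. The share of all genes below 0.05 in that fit was not counted, so the 2 cannot be set against a background. Of 139 log2 fold changes under alternatives, 127 kept their sign and 12 did not, and the cause was not tested. C1qa turned to -0.0021 in limma-voom, -0.0048 on log2(FPKM + 0.1) and -0.0042 on log2(FPKM + 1). C1qc turned to -0.019, -0.028 and -0.027 in these settings. With each tumor left out in turn, log2 fold changes ran from -0.24 to 0.26 for C1qa, from -0.1 to 0.45 for C1qb, from -0.23 to 0.22 for C1qc (-0.0049 without WT replicate 4) from -0.53 to 0.069 for C4b, from -0.37 to -0.03 for C1ra, from -0.36 to -0.013 for C1s1, from -0.96 to -0.41 for C2 and from -0.53 to -0.17 for Serping1. The lowest C1q values were without C3-/- replicate 1, the highest C4b value without WT replicate 2. The median of the 8, -0.17, ran from -0.36 to 0.018. With the replicate block the median was -0.18, 0 genes were called and C1qc was at -0.022. Tumors that shared a replicate number had residual correlations of -0.03, 0.491, -0.356 and 0.594. Those of tumors with different numbers were not computed, so these values cannot decide whether the numbers pair the tumors. C1ra and C1s1 stayed lower in C3-/- tumors in 18 of 18 settings each, as did C2 and Serping1 in 17 of 17 each. These settings reuse the same 8 tumors and are not replicates, and the values of C1ra and C1s1 shrank to -0.03 and -0.013 in some of them. Intervals of the C1q fold changes exclude neither a rise nor a drop by 0.38 on the log2 scale, and C2, at 23 to 127 counts, had the widest interval of the 8.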
